A study of Mus musculus with 17 samples.

Results

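The Hox genes are the 39 genes among the 23284 gene symbols of the count tables whose symbol is Hox followed by a cluster letter (a, b, c or d) and a paralogue number. The clusters hold 11 (Hoxa, chromosome 6), 10 (Hoxb, chromosome 11), 9 (Hoxc, chromosome 15) and 9 (Hoxd, chromosome 2) of them. RNA sequencing was done on 17 mouse tumours that the labels call neuroendocrine and place in the pituitary, 9 labelled Rb1/Trp53 (T1 to T9) and 8 labelled Rb1/Trp53/Crebbp (T1 to T8), so that engineered Rb1 and Trp53 alleles are common to both groups. Rb1 and Trp53 encode the tumour suppressors RB and p53, and Crebbp encodes a histone acetyltransferase and coactivator. No source used here states the strain, age or number of the mice or the driver of recombination, so p-values measure the spread between these tumours, which may share animals. Levels are CPM, a gene's count times 1e+06 over the library's total on genes, which ran from 8328297 to 28140755. The genotype fits scale the libraries further (TMM), so CPM values and fitted fold changes can differ.

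A library was called Pomc-high if it held more counts of Pomc, the hormone precursor of corticotrophs and melanotrophs, than of Calca, the calcitonin gene, and Calca-high otherwise. The 10 Pomc-high libraries were 6 labelled Rb1/Trp53 (T2 and T5 to T9) and 4 labelled Rb1/Trp53/Crebbp (T5 to T8), and the 7 Calca-high ones were 3 (T1, T3 and T4) and 4 (T1 to T4). Because counts and not labels made these sets, they are described and not tested against each other. Among the Calca-high libraries the totals of the genotypes did not overlap, at 20361712 to 28140755 for Rb1/Trp53 and 8328297 to 15490074 for Rb1/Trp53/Crebbp. The shares of reads in no annotated gene did not either, at 15.9% to 16.5% and 18.5% to 21.7%. The Calca-high libraries went against the pituitary label in their markers. The 9 markers of other anterior lobe cells, such as Gh and Prl, summed to at most 0.620 CPM there, with Gh and Fshb at 0 in all 7, against 10.9 to 13714 CPM in the Pomc-high libraries, while 9 thyroid follicular markers summed to 1075 to 17083 CPM against 7.06 to 148 CPM. Crebbp itself stood at 47.2 to 53.8 CPM in the Calca-high libraries labelled Rb1/Trp53 and at 76.6 to 109 CPM in those labelled Rb1/Trp53/Crebbp, and at 34.7 to 114 and 41.0 to 62.6 CPM in the Pomc-high ones. Whole-gene counts cannot show a deleted exon, so Crebbp did not check the genotype labels, and a direction by genotype below is a direction by label.

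Hox genes encode homeodomain transcription factors that give cells along the body axis their regional identity. In each cluster the genes lie in the order in which they are used along the axis, low paralogue numbers towards the hindbrain and high ones towards the tail, and Hox proteins bind DNA with partners of the Pbx, Meis and Pknox families. The forebrain and the oral ectoderm, from which the pituitary forms, lie ahead of the territory in which Hox genes are active and use other homeobox genes such as Six3, Six6, Lhx3 and Pitx1.

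RefSeq start sites (GRCm38.p6) were at hand for 22 of the 39 genes. In Hoxb these were only Hoxb1, Hoxb4 and Hoxb8, and in Hoxc only Hoxc4, so most windows below belong to Hoxa and Hoxd genes. Of the 250-base windows in front of the start sites, 5 are shown because their genes span the pattern of the results: Hoxb8 and Hoxb4 from the cluster expressed in all Calca-high libraries, Hoxd4 and Hoxd8 from the one expressed in 3 of them, and Hoxd10, their neighbour with few or no reads. No annotated exon overlaps these windows, all on the plus strand. Capitals mark matches on either strand to TATAAA (the letters of a TATA box, wherever they lie in the window), TGACG (the core of the element bound by CREB, a partner of CREBBP), the CCAAT box, TTTATG (a Cdx motif) and TGATNNAT (a Hox-Pbx motif).
Hoxb8, chr11:96281655-96281904: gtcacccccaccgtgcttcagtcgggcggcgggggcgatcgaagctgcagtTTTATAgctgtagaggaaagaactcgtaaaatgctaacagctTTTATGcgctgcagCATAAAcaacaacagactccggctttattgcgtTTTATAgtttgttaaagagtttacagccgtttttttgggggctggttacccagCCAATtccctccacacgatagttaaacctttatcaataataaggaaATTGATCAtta
Hoxb4, chr11:96318017-96318266: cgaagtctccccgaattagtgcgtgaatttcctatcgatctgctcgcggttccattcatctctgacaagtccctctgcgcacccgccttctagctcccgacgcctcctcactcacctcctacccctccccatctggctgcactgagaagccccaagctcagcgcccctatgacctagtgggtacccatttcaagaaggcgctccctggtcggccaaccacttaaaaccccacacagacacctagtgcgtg
Hoxd4, chr2:74721728-74721977: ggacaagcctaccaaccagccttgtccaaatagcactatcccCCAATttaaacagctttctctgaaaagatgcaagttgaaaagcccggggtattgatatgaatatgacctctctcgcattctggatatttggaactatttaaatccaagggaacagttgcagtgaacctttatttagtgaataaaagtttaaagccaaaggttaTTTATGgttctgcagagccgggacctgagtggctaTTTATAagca
Hoxd8, chr2:74704365-74704614: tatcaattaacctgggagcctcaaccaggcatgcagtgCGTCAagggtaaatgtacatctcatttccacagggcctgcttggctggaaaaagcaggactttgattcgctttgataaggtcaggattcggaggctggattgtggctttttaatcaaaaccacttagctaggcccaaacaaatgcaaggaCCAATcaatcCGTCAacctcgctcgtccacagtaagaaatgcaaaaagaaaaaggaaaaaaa
Hoxd10, chr2:74691641-74691890: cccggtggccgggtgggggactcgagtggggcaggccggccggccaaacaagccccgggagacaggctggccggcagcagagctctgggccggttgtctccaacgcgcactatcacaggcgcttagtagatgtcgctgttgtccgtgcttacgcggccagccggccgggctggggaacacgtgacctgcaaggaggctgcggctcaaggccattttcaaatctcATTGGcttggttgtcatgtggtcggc
The Hoxb8 window holds 2 matches to TATAAA, 2 to TTTATG and 1 to TGATNNAT, and the Hoxb4 window none of the motifs searched. Hoxd4 has 1 TATAAA and 1 TTTATG, Hoxd8 has 2 TGACG, and Hoxd10 has only CCAAT among the marked motifs. Over 24 Hox windows (some genes have more than 1 start), TATAAA was in 16.7% against 12.4% of all 32841 promoter windows of the same length, TTTATG in 20.8% against 10.8%, TGACG in 29.2% against 17.8%, TGATNNAT in 16.7% against 7.69% and CCAAT in 58.3% against 33.9%. The whole element TGACGTCA was in 0 Hox windows and in 1.55% of all. Also searched and not marked were CTCAAG (an Nkx2-1 motif, in 16.7% of Hox windows and 13.3% of all) and a Meis motif, TGACAG (in 8.33% and 15.9%). Overlapping matches count for each motif, and a match is a run of letters and not evidence of binding.

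Hox transcripts were near the limit of detection in every Pomc-high library. The 10 libraries together held 107 Hox counts, and each held 3 to 24, or 0.301 to 1.74 CPM for all members summed. In the 7 Calca-high libraries Hox genes held 90038 counts, 506 to 914 CPM per library. The sums of the sets did not overlap. In bulk tumour RNA, fewer cells of a type and less RNA per cell cannot be told apart.

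Of the 39 members, 17 had a read in some Pomc-high library and none reached 1 CPM there. The highest single value was 0.400 CPM, which was 8 reads of Hoxb8 in Rb1/Trp53 T5. Hoxb2 to Hoxb9 made up 90 of the 107 counts (84.1%), with Hoxb8 at 24 counts, Hoxb4 at 16 and Hoxb6 at 12, and the other 5 at 7 to 9. In the Calca-high libraries these 8 genes made up 92.8% of the Hox counts. The members with 0 reads in all 10 Pomc-high libraries included Hoxa2, Hoxa4, Hoxa5, Hoxb1, Hoxc4, Hoxc5, Hoxd1, Hoxd3 and Hoxd4, which allows a level of up to 0.0246 CPM over them (3 counts, counting error only).

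Among the Calca-high libraries, 32 members had a read and 16 reached 1 CPM in at least 1 library. Those at 1 CPM or more in all 7 were Hoxb2, Hoxb3, Hoxb4, Hoxb5, Hoxb6, Hoxb7, Hoxb8, Hoxb9 and Hoxc4. Another 7, Hoxa3, Hoxc5, Hoxc6, Hoxd3, Hoxd4, Hoxd8 and Hoxd9, did so in some. The remaining 23 stayed under 1 CPM in every library of both sets, and 6 of them (Hoxa11, Hoxa13, Hoxc11, Hoxc12, Hoxd12 and Hoxd13) had no read in any of the 17. The other 17 had reads, among them Hoxa2, Hoxa4, Hoxb1, Hoxc8 and Hoxd10, with Hoxa5 the highest at up to 0.917 CPM and Hoxa10 read only in a Pomc-high library, once.

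For 17 of the 39 members every Calca-high value was above every Pomc-high value, where 10.6% of the 19915 genes with a read showed that. The 9 members at 1 CPM or more in all Calca-high and under 1 CPM in all Pomc-high libraries compare with 0.783% of genes. As counts pooled over each set, Hoxb8 was 1339-fold, Hoxb3 1102-fold and Hoxb2 1002-fold higher in the Calca-high libraries, and Hoxb9, the lowest of Hoxb2 to Hoxb9, 215-fold. Against 3 counts over the Pomc-high libraries, Hoxc4 was at least 739-fold and Hoxc5 at least 114-fold higher.

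**Figure D1:**
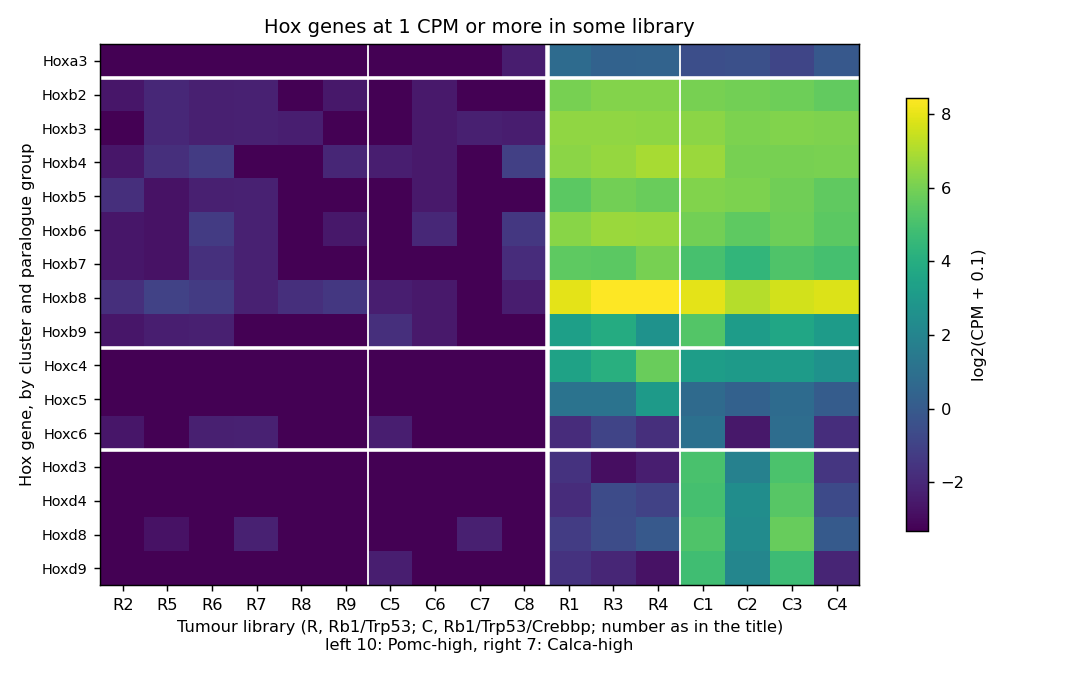
Level of each of the 16 Hox genes at 1 CPM or more in some library (rows, by cluster and paralogue group) in each of the 17 libraries (columns), as log2(CPM + 0.1). Hoxb2 to Hoxb9 are bright in all 7 Calca-high columns and dark in all 10 Pomc-high ones, and Hoxd3, Hoxd4, Hoxd8 and Hoxd9 are bright in only 3 columns, the Rb1/Trp53/Crebbp tumours T1, T2 and T3.

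The clusters differed in where along them transcripts stopped. In Hoxb, genes 2 to 9 were at 1 CPM or more in every Calca-high library and Hoxb1 (at most 0.355 CPM) and Hoxb13 (at most 0.0491 CPM) in none. In Hoxc, the highest paralogue number at 1 CPM was 5 in the Rb1/Trp53 libraries T1, T3 and T4, and 6, 5, 6 and 4 in the Rb1/Trp53/Crebbp libraries T1, T2, T3 and T4. In Hoxa only Hoxa3 reached 1 CPM, in the 3 Rb1/Trp53 libraries. Hoxd genes up to Hoxd9 did so in Rb1/Trp53/Crebbp T1, T2 and T3, and no Hoxd gene did in the other 4 libraries. The number of members at 1 CPM or more was 11 in each Rb1/Trp53 library and 15, 14, 15 and 9 in T1 to T4 of Rb1/Trp53/Crebbp.

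To compare genes, CPM was divided by exon length (CPM per kb). Hoxb then held 92.6% to 97.3% of the summed Hox level in the 3 Rb1/Trp53 libraries and 84.7%, 94.8%, 79.8% and 97.9% in Rb1/Trp53/Crebbp T1 to T4. The low values there went with Hoxd, which held 13.3%, 2.98%, 18.03% and 0.268% in those 4 libraries and 0.123% to 0.134% in the Rb1/Trp53 ones. Hoxc held 1.43% to 6.99% and Hoxa 0.224% to 0.564% over all 7. By position, paralogue groups 4 to 8 held 72.7% to 83.0%, groups 1 to 3 held 16.4% to 24.5% and groups 9 to 13 held 0.596% to 7.59%.

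**Figure D2:**
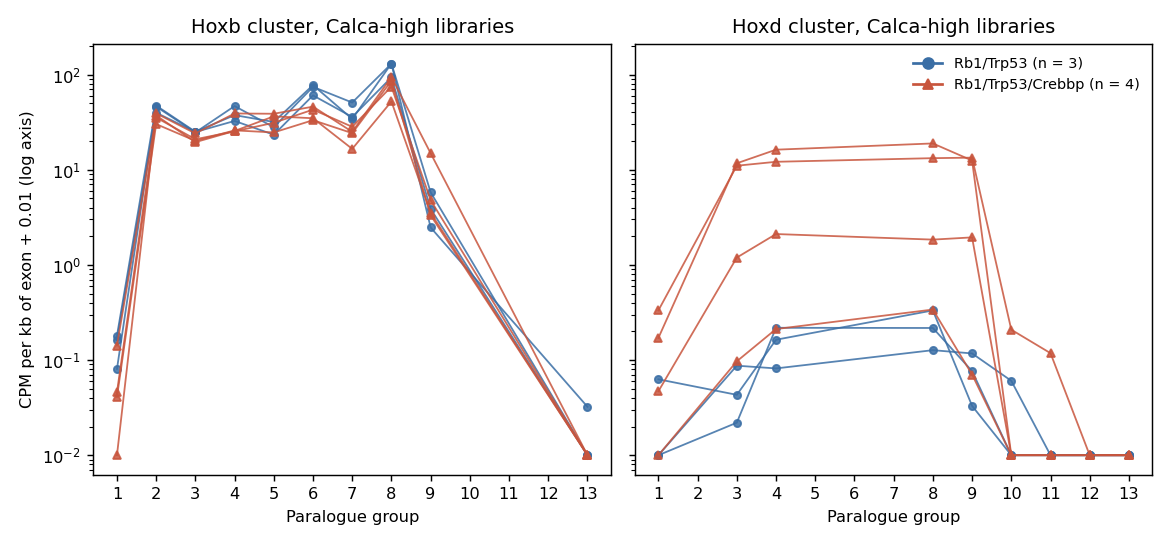
CPM per kb of exon plus 0.01 (log axis) against paralogue group in the Hoxb cluster (left) and the Hoxd cluster (right), 1 line for each of the 7 Calca-high libraries, 3 Rb1/Trp53 (circles) and 4 Rb1/Trp53/Crebbp (triangles). The 7 Hoxb lines run together and peak at group 8, while 3 Rb1/Trp53/Crebbp lines lie above the other 4 at Hoxd groups 3, 4, 8 and 9.

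Per kb, Hoxb8, which is known for roles in spinal cord and blood cell development, was the highest Hox gene in each of the 7 Calca-high libraries, with a median of 93.3 CPM per kb and a range of 52.1 to 130.4. Hoxb6 (46.0), Hoxb2 (39.1), Hoxb4 (32.5), Hoxb5 (31.1), Hoxb7 (28.2) and Hoxb3 (24.04 CPM per kb, medians) followed. Neighbours in this order overlapped in their ranges over libraries, Hoxb8 and Hoxb6 too, and Hoxb5 was above Hoxb7 in only 4 of 7 libraries. A step down came after Hoxb3, to Hoxc4 at 4.66 and Hoxb9 at 3.87 CPM per kb, although Hoxc4 was above Hoxb3 in 1 library.

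Hoxb2, a gene that patterns the hindbrain, stood at 64.7, 76.7 and 74.9 CPM in the Calca-high libraries Rb1/Trp53 T1, T3 and T4, and at 63.6, 60.4, 57.5 and 49.1 CPM in T1 to T4 of Rb1/Trp53/Crebbp. In the same order, Hoxb3 was at 87.7, 88.2 and 86.8 CPM in the first genotype and 84.7, 68.5, 73.5 and 70.8 CPM in the second. For both genes every Rb1/Trp53 CPM value was above every Rb1/Trp53/Crebbp one, by little in CPM where T1 of each genotype is compared. Hoxb4, best known for its action in blood stem cells, was at 83.5, 96.1 and 119.6 CPM and at 100.02, 65.5, 65.0 and 66.4 CPM. Rb1/Trp53/Crebbp T1 stood apart from the other 3 of its genotype and lay within the range of the other group.

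Hoxb5 had 44.2, 60.1 and 52.9 CPM in the Rb1/Trp53 libraries and 73.4, 68.9, 59.0 and 46.7 CPM in the others, with overlap. Hoxb6 had 79.7, 102 and 98.1 CPM against 60.8, 45.9, 56.5 and 43.8 CPM. Hoxb7 had 46.2, 44.1 and 65.6 CPM against 32.3, 21.4, 36.4 and 31.2 CPM. Hoxb6 and Hoxb7 did not overlap between the genotypes and were lower in all 4 Rb1/Trp53/Crebbp libraries. Hoxb8 reached 246, 344 and 342 CPM against 248, 137, 197 and 227 CPM, where T1 of both genotypes were nearly level in CPM, before the scaling of the fits. Hoxb9, the most posterior member with a level above 1 CPM in every library, had 9.95, 14.9 and 6.34 CPM against 38.3, 9.02, 12.3 and 8.52 CPM. Its T1 value in the Rb1/Trp53/Crebbp group was the only one above 15 CPM.

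Hoxc4 was at 10.9, 16.9 and 54.0 CPM in the Rb1/Trp53 libraries T1, T3 and T4 and at 9.25, 8.47, 8.61 and 6.20 CPM in the Rb1/Trp53/Crebbp libraries. Its neighbour Hoxc5 followed at 2.16, 2.13 and 8.30 CPM against 1.56, 1.17, 1.65 and 0.968 CPM. Rb1/Trp53 T4 was the highest for both, and neither gene overlapped between the genotypes. Hoxc6 reached 1 CPM in 2 libraries, Rb1/Trp53/Crebbp T1 (1.92 CPM) and T3 (1.72 CPM), and was at 0.0689 to 0.426 CPM in the other 5. The Hoxc genes from 8 to 13 had at most 0.374 CPM.

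In the Hoxa cluster, Hoxa3, which is needed for thymus, parathyroid and C-cell formation, had 1.61, 1.21 and 1.23 CPM in the Rb1/Trp53 libraries and 0.6004, 0.620, 0.449 and 0.839 CPM in the others, with no overlap. Hoxa5, a gene of lung and thyroid development, had 0.640 to 0.917 CPM and 0.276 to 0.904 CPM, which overlapped. Hoxa2 and Hoxa4 had 0.0689 to 0.642 CPM over the 7 libraries and were higher in each Rb1/Trp53 library than in any Rb1/Trp53/Crebbp one. Each had only 1 or 2 reads in each Rb1/Trp53/Crebbp library, and these libraries were the shallower ones.

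The Hoxd genes varied most among the Calca-high libraries. Hoxd3 stood at 32.7, 3.51, 34.7 and 0.258 CPM in T1 to T4 of Rb1/Trp53/Crebbp, and at 0.229, 0.0355 and 0.0982 CPM in Rb1/Trp53 T1, T3 and T4. Hoxd4 followed with 31.0, 5.37, 41.5 and 0.516 CPM against 0.183, 0.533 and 0.393 CPM. Hoxd8 had 36.3, 5.03, 51.8 and 0.904 CPM against 0.321, 0.569 and 0.884 CPM. Hoxd9 had 28.6, 4.13, 26.6 and 0.129 CPM against 0.229, 0.142 and 0.0491 CPM.

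All 4 Hoxd genes were thus high in the same 2 libraries, T1 and T3 of the Rb1/Trp53/Crebbp group, intermediate in T2, and under 1 CPM in T4 of that group as in the 3 Rb1/Trp53 libraries. The highest value was 975 times the lowest for Hoxd3, 226 times for Hoxd4, 161 times for Hoxd8 and 582 times for Hoxd9, against 1.29 times for Hoxb3 and 6.05 times for Hoxb9. Hoxd1 had few reads, at 0.6004 CPM in T1, 0.0689 CPM in T2 and 0.299 CPM in T3 of the Rb1/Trp53/Crebbp group, 0.0982 CPM in Rb1/Trp53 T4 and 0 in the other 3. Hoxd10, next to Hoxd9, had 0.360 CPM in T1 of the Rb1/Trp53/Crebbp group and 0.0917 CPM in T1 of the Rb1/Trp53 group, and Hoxd11 had 0.120 CPM in the former. The summed mesenchyme markers of those 4 libraries, T1 to T4, were 406, 965, 336 and 532 CPM, cartilage and bone markers 59.1, 70.5, 93.4 and 109.7 CPM, and spinal cord and peripheral nerve markers 331, 305, 284 and 238 CPM. Mesenchyme markers were highest in T2 and cartilage and bone markers in T4, while nerve markers were highest in T1 and lowest in T4, and the part of these cells in the Hoxd levels was not tested.

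**Figure D3:**
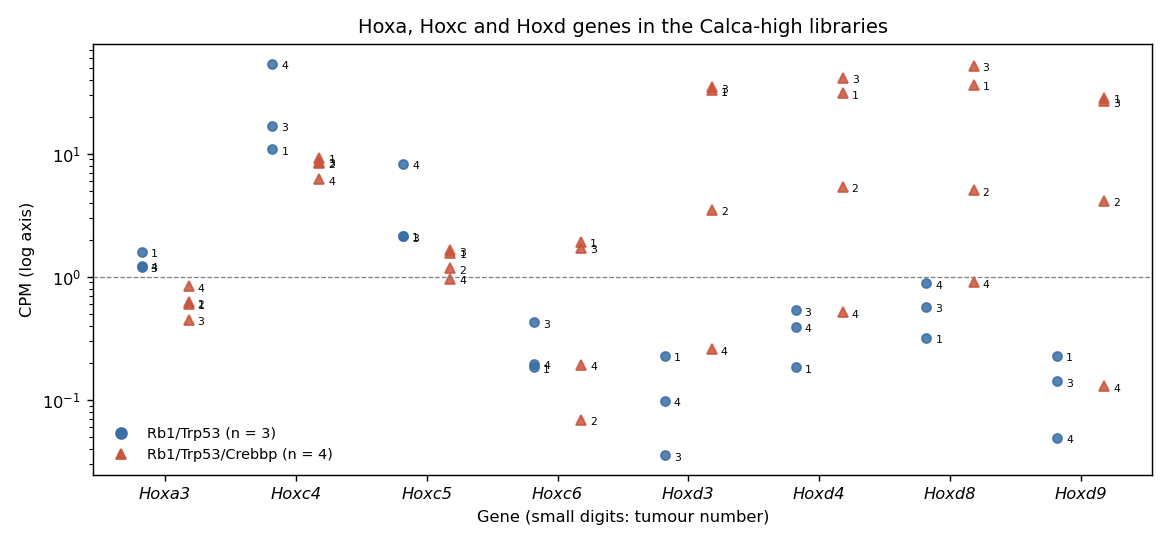
CPM (log axis) of 8 Hoxa, Hoxc and Hoxd genes in the 7 Calca-high libraries, 1 point per library with its tumour number, circles for Rb1/Trp53 (n = 3) and triangles for Rb1/Trp53/Crebbp (n = 4), and a dashed line at 1 CPM. Rb1/Trp53 T4 is the highest point of Hoxc4 and Hoxc5, and Rb1/Trp53/Crebbp T1 and T3 are the highest points of the 4 Hoxd genes, with T4 of that genotype under 1 CPM like the Rb1/Trp53 points, within their range for Hoxd4 and Hoxd9 and just above it for Hoxd3 and Hoxd8.

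The stated aim was to find genes under the control of Crebbp, and the genotypes were compared within each set. In the Calca-high libraries, 9 of 16 tested Hox genes were lower and 4 were higher in the libraries labelled Rb1/Trp53/Crebbp (edgeR's quasi-likelihood test, Benjamini-Hochberg adjustment over all genes). The 4 higher ones, all Hoxd genes, and Hoxa3 among the lower ones passed the low-count filter through the group where they were high. Those calls are no support for a genotype difference. The test called 36.2% of all 14797 genes tested, 19.1% higher and 17.1% lower, so a call was common in this comparison. The median log2 fold change was -0.58 over the 16 Hox genes and -0.02 over all genes. CPM values of the genotypes did not overlap for 9 of the 16, 7 lower and 2 higher, where 45.8% of all tested genes did not overlap, 34.4% higher and 11.4% lower. The 2 higher ones, Hoxd3 and Hoxd8, and Hoxa3 among the lower ones have the same limit as their calls. CPM lack the TMM scaling of the fit, so the 2 measures can differ. Hoxb5, for one, averaged 52.4 CPM in the Rb1/Trp53 and 62.0 CPM in the Rb1/Trp53/Crebbp libraries, with a fitted log2 fold change of 0.03. Leaving out each library in turn gave 4 to 10 called members. The fewest were 4 of 13 tested without Rb1/Trp53/Crebbp T3, where 3945 of all 14847 tested genes were called. The most were 10 of 16 without Rb1/Trp53/Crebbp T4, where 4003 of 14857 were. Without Rb1/Trp53 T4 the calls were 6 of 17 Hox genes and 5312 of 15042 genes. With limma-voom 7 of 16 were called, all lower, where it called 36.8% of all genes. With no low-count filter 10 of 32 Hox genes were called, all lower, against 26.8% of all genes, and DESeq2 called 13 against 41.0%.

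In the Hoxb cluster, Hoxb6 fell by 1.06 ± 0.14 on the log2 scale (SE, adjusted p = 0.00193) and Hoxb7 by 0.98 ± 0.19 (adjusted p = 0.00704). Hoxb8 fell by 0.83 ± 0.22 (adjusted p = 0.0215), Hoxb4 by 0.63 ± 0.19 (adjusted p = 0.033), Hoxb2 by 0.53 ± 0.11 (adjusted p = 0.0098) and Hoxb3 by 0.44 ± 0.09 (adjusted p = 0.009). Hoxb5 (0.03 ± 0.18, adjusted p = 0.911) and Hoxb9 (0.47 ± 0.59, adjusted p = 0.559) did not pass the threshold, so the 2 were not shown to share the fall of their neighbours. Hoxb6 and Hoxb7 passed in every alternative fit and without each library in turn. Hoxb8 did not pass without Rb1/Trp53/Crebbp T3 (-0.81, adjusted p = 0.0568), Rb1/Trp53 T3 (-0.71, adjusted p = 0.0756) or T4 (-0.76, adjusted p = 0.0534), and Hoxb4 passed only without T1 of either genotype (-0.76 to -0.80), with -0.49 to -0.63 and adjusted p-values of 0.0753 to 0.0891 without each of the other 5.

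Hoxc4 fell by 1.95 ± 0.51 (adjusted p = 0.0217) and Hoxc5 by 1.85 ± 0.53 (adjusted p = 0.0271). Without Rb1/Trp53 T4 their log2 fold changes came to -1.01 (adjusted p = 0.0165) and -0.91 (adjusted p = 0.0655), and Hoxc4 missed the threshold without Rb1/Trp53/Crebbp T3 (adjusted p = 0.0558) or T4 (adjusted p = 0.0586). Without a Rb1/Trp53/Crebbp library Hoxc5 had adjusted p-values of 0.0516 to 0.0712. Hoxa3 fell by 1.28 ± 0.34 (adjusted p = 0.0222) and missed it without Rb1/Trp53 T1 (adjusted p = 0.0708), Rb1/Trp53 T3 (adjusted p = 0.0586) or Rb1/Trp53/Crebbp T3 (adjusted p = 0.0527). Hoxa5 had -0.67 ± 0.45 (adjusted p = 0.273).

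The 4 Hoxd genes had log2 fold changes of 6.95 ± 1.86 (Hoxd3, adjusted p = 0.0275), 5.42 ± 1.502 (Hoxd4, adjusted p = 0.0304), 5.06 ± 1.46 (Hoxd8, adjusted p = 0.0357) and 6.41 ± 1.73 (Hoxd9, adjusted p = 0.0266). Hoxd3, Hoxd4 and Hoxd9 passed the low-count filter only through Rb1/Trp53/Crebbp T1, T2 and T3, so they had to differ, and their calls are no support for a genotype difference. The filter asks for a level in at least 3 libraries. Hoxd8 had it in 1 Rb1/Trp53 and 4 Rb1/Trp53/Crebbp libraries, and Hoxa3 in 3 and 1. Each thus passed through the group where it was high, and these calls are no such support either. T4 of Rb1/Trp53/Crebbp stayed under 1 CPM for the 4 Hoxd genes, as did the Rb1/Trp53 libraries. No Hoxd gene passed when a Rb1/Trp53 library was left out (adjusted p-values of 0.0828 to 0.115), and 3 were not tested without Rb1/Trp53/Crebbp T1, T2 or T3, where Hoxd8 had adjusted p-values of 0.0537, 0.0347 and 0.0556. Exons of Hoxd3 and Hoxd4 overlap each other in GENCODE M21 and those of Hoxa3 and Hoxc5 overlap other models, and how such reads were counted is not stated, so these 4 values are uncertain. Exons of Hoxb2, Hoxb3 and Hoxb5 lie opposite antisense models, as do those of Hoxa3, Hoxd3 and Hoxd4, and with the strand setting unknown reads of both cannot be told apart.

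**Figure D4:**
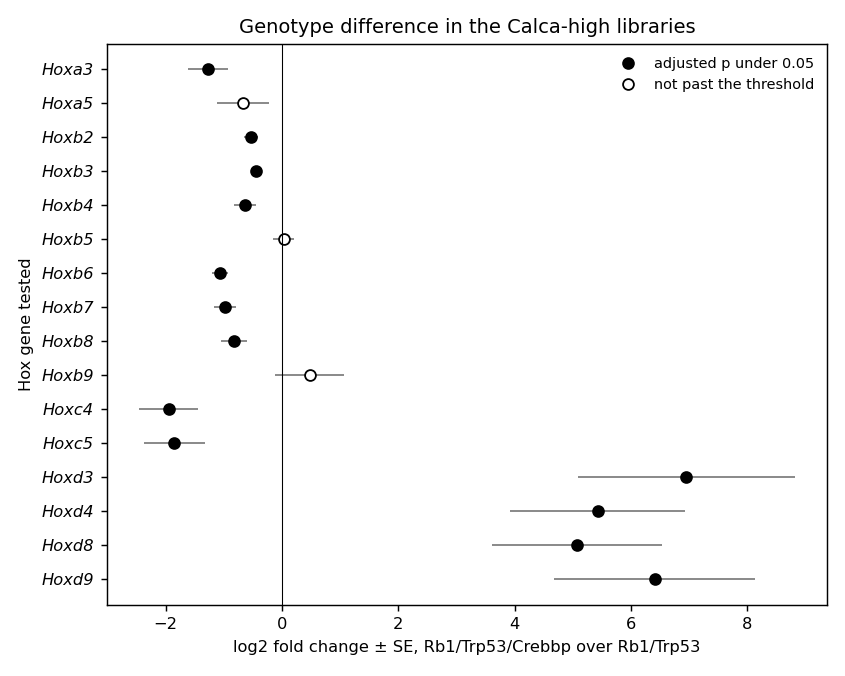
Log2 fold change of Rb1/Trp53/Crebbp over Rb1/Trp53 in the Calca-high libraries, with its SE as a bar, for the 16 Hox genes tested, filled where the adjusted p was under 0.05. All but 2 of the Hoxa, Hoxb and Hoxc genes lie left of 0, and the 4 Hoxd genes lie between 5.06 and 6.95 with SEs of 1.46 to 1.86.

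Markers of some other cells moved with the genotype in the same 7 libraries, where 17.1% of all genes were called lower and 19.1% higher. Thyroid follicular markers summed to 2117 to 17083 CPM in the Rb1/Trp53 libraries and 1075 to 1439 CPM in the others, with 7 of 8 tested markers lower. Lung epithelial markers summed to 222 to 377 against 95.1 to 132 CPM (4 of 8 lower, 1 higher), fat cell markers to 40.9 to 252 against 7.81 to 11.6 CPM (6 of 6 lower) and endothelial markers to 86.4 to 108 against 60.5 to 76.5 CPM (6 of 10 lower). The 7 C-cell markers, Calca among them, summed to 128875 to 176771 against 44739 to 82982 CPM (5 of 6 lower). None of these 5 lists had a marker at 0 in all libraries of a genotype. Fibroblast and mesenchyme markers overlapped, at 906 to 1139 against 336 to 965 CPM (2 of 14 lower), as did macrophage markers, at 148 to 194 against 64.0 to 161 CPM (2 of 9 lower). T and B cell markers summed to 16.2 to 36.3 against 3.55 to 9.97 CPM, with Ms4a1 at 0 in all 7 libraries, and Cd3e at 0 in the second group. The sums of melanotroph and corticotroph markers were 7040 to 8524 against 2459 to 3333 CPM (2 of 4 tested lower, 1 higher), with Neurod1 at 0 in the second group. Overlapping sums were those of pericyte and smooth muscle (94.7 to 177 against 66.9 to 160.1 CPM, 4 of 9 lower) and skeletal muscle markers (9.27 to 1155 against 4.64 to 599 CPM, 0 of 7 tested called). So were those of cartilage and bone (24.3 to 66.3 against 59.1 to 109.7 CPM, 2 of 4 tested higher, Ibsp at 0), posterior lobe and astroglial (97.6 to 151 against 71.6 to 141 CPM, 2 of 5 tested lower, Rax at 0 in the first group) and spinal cord and nerve markers (237 to 269 against 238 to 331 CPM, 2 of 8 tested lower, Mnx1 at 0 in the second group). The part of these cells in the Hox differences was not tested.

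In the Pomc-high libraries no Hox gene passed the low-count filter, so none was tested, while 8.42% of 14010 other genes were called. With no filter 17 were tested and 0 passed, against 5.53% of all genes, with 1 at an unadjusted p under 0.05 (Hoxb8, log2 fold change -1.87 ± 0.68, adjusted p = 0.125, on 24 counts). Hox counts per library were 3 to 24 in the 6 Rb1/Trp53 and 3 to 14 in the 4 Rb1/Trp53/Crebbp libraries. Hoxb8 had 1 to 8 reads (0.114 to 0.400 CPM) in each of the former and 0 or 1 (at most 0.101 CPM) in the latter. Its read counts overlapped, at 1 read in Rb1/Trp53 T7 and in Rb1/Trp53/Crebbp T5, T6 and T8. Its CPM ranges were apart only because the total of Rb1/Trp53 T7 (8741091) was the lowest of these 4, so they show no genotype difference. No other of the 17 members with a read there had CPM ranges apart, and 2.49% of all genes with a read there were lower in CPM in this way.

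Over all 17 libraries and for the interaction of genotype and set, no Hox gene passed the filter either, which asks for a level in at least 8 libraries, while Hox genes reached it in 7 at most. The calls over all genes were 3.86% and 24.7%. With no filter 33 were tested. Over all libraries 2 of them then rose, Hoxd3 (6.9995 ± 1.63, adjusted p = 0.0341) and Hoxd9 (6.52 ± 1.55, adjusted p = 0.0369), where 2.36% of genes were called, 6 had an unadjusted p under 0.05, and both rest on the 3 libraries named above. For the interaction 0 were called, against 15.6% of all genes, with 0 at an unadjusted p under 0.05. Members with 0 reads in all Pomc-high libraries could not be called in this fit (SE 36142 for Hoxd3 and 4904 for Hoxc4). The others had few reads in that set. The fit therefore cannot decide whether the genotype differences of the Hox genes differ between the sets.

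Transcripts of Hox cofactors were present in both sets, and some differed in level. Meis2, which encodes a homeodomain partner of Hox and Pbx proteins, stood at 107 to 164 CPM in the Calca-high libraries and 0.428 to 1.94 CPM in the Pomc-high ones. Meis1 stood at 30.5 to 40.9 against 4.68 to 11.1 CPM, Pknox2 at 19.3 to 32.9 against 4.74 to 10.3 CPM and Pknox1 at 25.3 to 36.4 against 13.5 to 23.6 CPM. Of the 9 cofactor genes of the 3 families, 4 had all Calca-high values above all Pomc-high values and 1, Pbx4, the reverse, and the other 4 overlapped. Over all genes with a read these shares were 10.6% and 6.47%.

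Some homeobox genes of the head and pituitary were higher in the Pomc-high libraries. Six3 was at 159 to 299 CPM in the Pomc-high libraries and at most 0.120 CPM in the Calca-high ones, Six6 at 68.8 to 129.8 CPM and at most 0.0491 CPM, and Lhx3, a regulator of pituitary cell fate, at 148 to 231 and 0.871 to 8.65 CPM. Pitx1 had 135 to 228 and 1.05 to 52.3 CPM. Of 15 genes on this list, 5 were higher in every Pomc-high library and 1, Nkx2-1, which also acts in thyroid and lung, was higher in every Calca-high library (220.5 to 332 against 0.409 to 16.3 CPM). The other 9 overlapped, and over all genes 6.47% were higher in every Pomc-high and 10.6% in every Calca-high library.

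**Figure D5:**
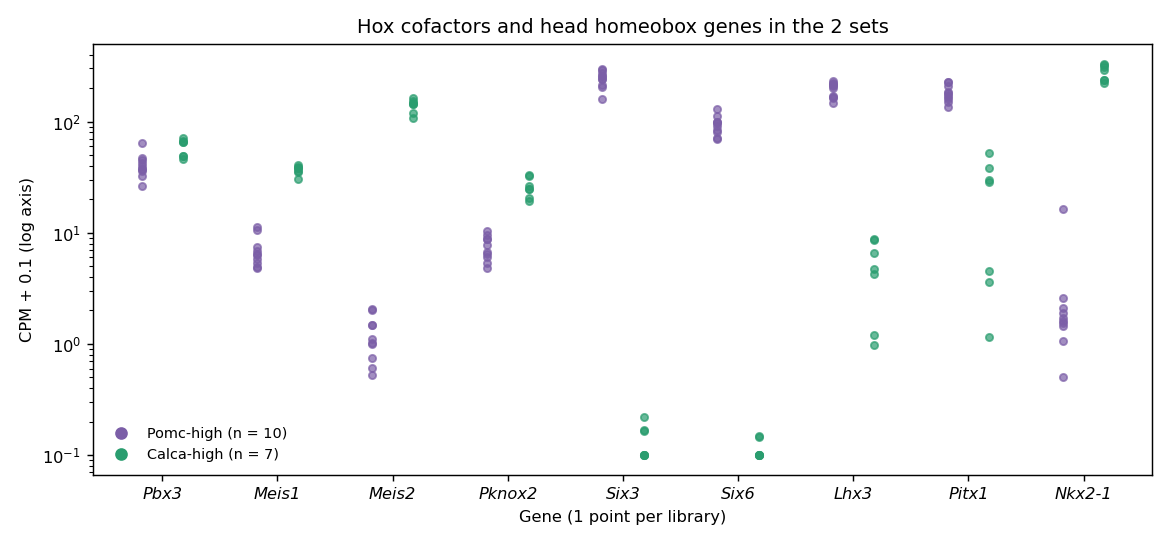
CPM plus 0.1 (log axis) of 4 Hox cofactor genes, 4 head and pituitary homeobox genes and Nkx2-1 in each library, 10 Pomc-high and 7 Calca-high points per gene. Meis2 and Nkx2-1 are higher in all Calca-high libraries, and Six3, Six6, Lhx3 and Pitx1 are higher in all Pomc-high ones.

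By genotype in the Calca-high libraries, where 36.2% of all genes were called, 1 of 9 cofactor genes rose, Pbx3 (0.29 ± 0.08, adjusted p = 0.0253), and 1 fell, Pbx2 (-0.69 ± 0.12, adjusted p = 0.00493). Of the head genes, 4 of 15 were tested there, Lhx2 rose (2.60 ± 0.52, adjusted p = 0.00751) and Nkx2-1 fell (-0.58 ± 0.11, adjusted p = 0.00656). In the Pomc-high libraries, and over all 17, 0 of 9 cofactor genes and 0 of 7 tested head genes were called. The interaction, which called 24.7% of all genes, called 2 of 9 cofactor genes, Pbx2 (-0.82 ± 0.16, adjusted p = 0.00204) and Meis1 (-0.67 ± 0.21, adjusted p = 0.026), and 2 of 7 tested head genes, Lhx2 (2.49 ± 0.73, adjusted p = 0.0213) and Nkx2-1 (-2.29 ± 0.76, adjusted p = 0.0392).

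Polycomb and Trithorax proteins keep Hox genes silent or active. Among Polycomb genes, 6 of 26 had all Calca-high values above all Pomc-high ones (10.6% of all genes), with Ezh2, the methyltransferase, at 36.2 to 70.4 against 24.7 to 35.5 CPM and Phc2 at 157 to 202 against 65.0 to 96.3 CPM, and 1, Phf1, was higher in every Pomc-high library (6.47% of all genes). By genotype in the Calca-high libraries 6 of 26 rose and 4 fell, close to the 19.1% and 17.1% of all genes. Pcgf3 (0.99 ± 0.13, adjusted p = 0.00181), Suz12 (0.67 ± 0.10, adjusted p = 0.0027) and Phc3 (0.67 ± 0.12, adjusted p = 0.00498) had the smallest adjusted p-values. Trithorax and activator genes had 10 of 20 that rose and 1 that fell, against the same 19.1% and 17.1%, led by Mllt3 (1.08 ± 0.12, adjusted p = 0.00129), Dot1l (1.12 ± 0.13, adjusted p = 0.0013) and Mll3 (0.80 ± 0.11, adjusted p = 0.00219), with a list median of 0.37 against -0.02 over all genes. For the interaction of genotype and set, where 24.7% of all genes were called, 4 Polycomb genes were called higher and 4 lower, and 9 Trithorax genes higher and 1 lower. In the Pomc-high libraries, with 8.42% of all genes called, Bmi1 rose (0.54 ± 0.10, adjusted p = 0.00689) and 0 of 20 Trithorax genes were called. Over all 17 libraries, with 3.86% of all genes called, 1 gene of these lists was called, Psip1 (0.46 ± 0.09, adjusted p = 0.0112).

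The Cdx genes, which switch on posterior Hox genes in the embryo, were at or near 0. Cdx1, Cdx2 and Cdx4 had at most 0.0917 CPM in any library. Of the 20 Cdx and retinoid genes, Rara, Rxra and Aldh1a3 were higher in every Calca-high library and Rarb in every Pomc-high one, against 10.6% and 6.47% of all genes. Rara, a retinoic acid receptor gene, was at 23.6 to 29.3 against 3.72 to 12.1 CPM. By genotype in the Calca-high libraries Rarb rose (1.07 ± 0.35, adjusted p = 0.0435), and Aldh1a1 (-1.16 ± 0.25, adjusted p = 0.00926) and Dhrs3 (-1.71 ± 0.39, adjusted p = 0.013) fell. These are 3 of 13 tested, where 36.2% of all genes were called. In the Pomc-high libraries and over all 17, 0 of 11 tested were called, against 8.42% and 3.86% of all genes. The interaction called 1 of 11, higher, against 24.7%.

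Genes flanking the clusters did not all share the pattern of the sets. Skap1, beside Hoxb, was at 18.7 to 40.9 against 0.572 to 6.13 CPM, and Skap2, beside Hoxa, at 31.1 to 46.3 against 4.24 to 15.6 CPM. Mtx2, beside Hoxd, overlapped at 27.6 to 37.1 and 22.4 to 37.0 CPM, and the homeobox genes Evx1 and Evx2 at the cluster ends had at most 0.114 CPM. Of 13 neighbours, 2 were higher in every Calca-high library, near the 10.6% of all genes. By genotype in that set, where 19.1% of all genes rose and 17.1% fell, 2 of 9 tested neighbours rose and 3 fell, Hibadh (-0.71 ± 0.12, adjusted p = 0.00422), Cbx5 (0.62 ± 0.11, adjusted p = 0.00493) and Calcoco1 (-0.68 ± 0.13, adjusted p = 0.00704) with the smallest adjusted p-values. In the Pomc-high libraries, with 8.42% of all genes called, 1 of 9 fell, Skap2 (-1.01 ± 0.20, adjusted p = 0.00875). The interaction, which called 24.7% of all genes, called 1 of 9 higher and 2 lower. Over all 17 libraries, with 3.86% of all genes called, 0 of 9 were called. The 9 noncoding and antisense genes of the clusters that the tables name summed to at most 0.374 CPM per library and none was tested. The ParaHox, Mnx and Gbx genes, relatives of the Hox genes outside the clusters, had at most 0.916 CPM (Gsx1), and 0 of 9 was tested.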

How the data were processed

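Gene counts of the 17 libraries were used as the authors deposited them, 1 table per library with 23284 gene symbols and 5 summary rows, which stayed out of totals and tests (genes held 64.5% to 78.3% of all counts). The submitters' processing notes name bcl2fastq 1.8.2, TopHat2 2.0.12, HTSeq 0.6.1 and mm9. No source used here gives the annotation or strand setting. RNA was extracted with TRIzol and selected with oligo-dT, per the labels' protocols, so most RNA without a poly-A tail is not measured.

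Genotypes were compared with edgeR 4.0.16 (R 4.3.3): filterByExpr by genotype, TMM, robust quasi-likelihood F test, Benjamini-Hochberg adjustment over all tested genes, calls at an adjusted p under 0.05. A positive log2 fold change is a higher level in Rb1/Trp53/Crebbp libraries. Its SE is its size divided by the square root of F. On simulated data with 200 changed genes the Calca-high fit recovered 55% of 2-fold and 81% of 4-fold changes. DESeq2 1.42.0, limma 3.58.1 (voom), other filters and scalings, and each left-out library were alternatives. Exon lengths came from GENCODE M21 (GRCm38), not the authors' annotation. No 2 libraries of a group were duplicates (lowest chi-square per degree of freedom 8.30 over 64 pairs).

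Described one by one are Hox genes at 1 CPM or more in 3 or more libraries or called in a fit, and up to 3 called genes of each list with the smallest adjusted p. Other genes named for their levels in the sets were chosen after their values were seen. The members and the 23 gene lists (268 entries, 258 matched, 9 through a synonym) were chosen with earlier results of these data known. Some genes of the lists and 1 Hox gene are not reported here by name.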

Additional observations from a re-analysis of the deposited data

Results flagged for a closer look

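Of 15 genes examined in the 4 Calca-high libraries labelled Rb1/Trp53/Crebbp, 2 held a library far from the others, where chance flags about 1 in 20. The 3 Calca-high libraries labelled Rb1/Trp53 were too few to be examined. For both genes the library was Rb1/Trp53/Crebbp T1. Hoxb4 stood there at 100.02 CPM, where the next highest was 66.4 CPM, and Hoxb9 at 38.3 CPM, where the next highest was 12.3 CPM. The same library had the highest Hoxb5 and Hoxc6 values of the 7.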

How the results depend on the processing

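In the Calca-high libraries 13 Hox genes were called with edgeR, 13 with DESeq2 size factors, a filter at 1 CPM or DESeq2, 10 (all lower) with no filter, and 7 (all lower) with limma-voom. Without each library 4 to 10 of 13 to 17 tested were called, where 3588 to 5312 of all genes were. The 13 kept their sign in every fit that tested them, and Hoxb6 and Hoxb7 were called in all. Uncalled genes changed sign without a library, Hoxb5 (-0.10 to 0.18) to -0.10, -0.06 and -0.03 without Rb1/Trp53 T1, Rb1/Trp53/Crebbp T1 and T2, and Hoxb9 (-0.28 to 0.87) to -0.28 without Rb1/Trp53/Crebbp T1. With no filter 2 were called over all libraries. The cause was not tested. The replicate numbers were not shown to pair the tumours (correlations of same-numbered libraries from -0.16 to 0.19, of differently numbered ones from -0.25 to 0.26). With so few pairs this cannot exclude a pairing. With the replicate block 4 Hox genes were called in the Calca-high libraries, 2 higher (Hoxd3 and Hoxd9) and 2 lower (Hoxb6 and Hoxb7), Hoxb5 stood at -0.036, and 0 were called in the other fits. Over all genes the calls were 1179 in the Pomc-high libraries (1917 with DESeq2, 354 with the block, 752 without Rb1/Trp53/Crebbp T7), 5355 in the Calca-high ones (2700 with the block), 554 over all (1397 with DESeq2, 2575 with the set as a term, 627 with the set and the block, a fit chosen after seeing the data) and 3543 for the interaction (1311 with the block). At 0.5 CPM, 2 CPM or 10 counts, 20, 14 and 20 members passed in some library in place of 16. Depth limits the Pomc-high libraries, where 3 counts are 0.107 to 0.360 CPM in a library.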
